A study of Mus musculus with 9 samples.

Results

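Aminoacyl-tRNA synthetases are the enzymes that join each amino acid to its transfer RNA. The 36 genes described here were taken from a fixed list of 20 cytosolic enzymes and 16 mitochondrial enzymes, the latter carrying names that end in 2. They were matched by symbol or synonym to the 55487 gene identifiers of the count tables. All 36 matched, 1 of them through a synonym, since Mars1 is listed as Mars in the annotation. All 36 also passed the filter on low counts, which left 13453 genes for testing, so no member is missing from the counts given below.

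The libraries come from J774A.1, a mouse macrophage line, and measure polyadenylated RNA. There were 3 groups of 3 libraries: cells with a control guide RNA called safe, labelled wild type, and cells with either of 2 guide RNAs against Slc12a9, sgRNA 11 and sgRNA 15. For the Slc12a9 groups the labels give a knockdown and the design text a knockout, and neither source says whether the cells were clones or pools. Before the experiment the cells grew in medium with 10% serum and L-glutamine. Every group, the controls included, was then held for 6 h in medium without serum and without glutamine before RNA was taken, and no group in full medium was analysed here. The comparison asks how expression with each Slc12a9 guide differed from the safe guide in that medium.

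As background, most amino acids have a separate gene for each compartment. The cytosolic enzymes supply charged tRNAs to the ribosomes that translate nuclear transcripts, and the mitochondrial enzymes, also encoded in the nucleus, supply the ribosomes of the organelle. Gars and Kars are exceptions, since 1 gene gives both the cytosolic and the mitochondrial form. Eprs carries the glutamate and the proline enzyme in 1 protein, and Farsa and Farsb are the subunits of 1 phenylalanine enzyme. Cells sense shortage of amino acids through uncharged tRNA, which activates the kinase GCN2, and the transcription factor ATF4 made in that response is known to act on genes for amino acid synthesis, uptake and tRNA charging. No mitochondrial glutamine enzyme exists in mammals: glutamate is first placed on the glutamine tRNA and then amidated by the GatCAB complex.

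Gene counts summed to between 16405296 and 25613961 per library. All 10 macrophage markers were detected, with a summed level of 6397 to 6555 CPM in the safe libraries, 9986 to 10304 in those of sgRNA 11 and 8324 to 8419 in those of sgRNA 15, where CPM is the count scaled to the size of the library with TMM factors. The macrophage sum thus differed between the groups, and its part in the results below was not tested. Lyz2, the lysozyme gene, carried most of that difference, at 1727 ± 117, 4513 ± 87.2 and 3567 ± 37.7 CPM (SD, n = 3). The markers did not move as 1: with sgRNA 11, 8 were higher and Cd68 and Cd14 lower, and with sgRNA 15, 6 were higher, Spi1, Cd14 and Fcgr1 lower and Csf1r not called. Markers of fibroblasts summed to 1.21 to 2.61 CPM and those of epithelium, B cells and T cells to at most 0.317 CPM, with Col1a2, Dcn, Epcam, Krt8, Krt18, Ms4a1, Cd3e and Cd8a at 0 in all 9 libraries. Slc12a9 mRNA stood at 44.8, 53.5 and 46.96 CPM with safe sgRNA, 62.6, 66.3 and 67.01 with sgRNA 11 and 48.2, 50.01 and 51.7 with sgRNA 15. It was higher with sgRNA 11 (log2 fold change 0.43, edgeR adjusted p = 6.45e-13) and not called with sgRNA 15 (0.05, adjusted p = 0.426), so the transcript gives no sign of which cells were edited, and directions below are those of the libraries as labelled. Nothing in the labels says that the 3 libraries of a group came from separate cultures, so each p-value speaks of the spread among these libraries alone, which may be technical.

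The cytosolic set moved in both directions and every member passed the test, whereas 9 of 16 mitochondrial genes passed with sgRNA 11 and 10 of 16 with sgRNA 15. With sgRNA 11, 14 of 20 cytosolic genes rose and 6 fell (edgeR quasi-likelihood test, Benjamini-Hochberg adjusted p under 0.05). Of all tested genes 65.8% were called in that comparison, 33.3% higher and 32.4% lower. With sgRNA 15 the same 14 genes rose and the same 6 fell, against 62.9% of all genes called, 32.2% higher and 30.7% lower. The median log2 fold change of the cytosolic set was 0.43 with sgRNA 11 and 0.50 with sgRNA 15, while that of all tested genes was 0.01 with each guide. For the mean of both guides 14 cytosolic genes were again higher and 6 lower, with a median of 0.45 and a background of 68.0% called, 34.7% higher and 33.3% lower. Both guides were set against the same safe libraries, so the counts for the guides are not independent of each other. In bulk RNA, fewer cells of a type and less RNA per cell cannot be told apart.

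In the mitochondrial set 4 genes rose and 5 fell with sgRNA 11, beside 33.3% higher and 32.4% lower among all tested genes. With sgRNA 15, 4 rose and 6 fell, beside 32.2% and 30.7% of all. With sgRNA 11, Fars2, Pars2, Tars2 and Vars2 rose, Aars2, Iars2, Mars2, Nars2 and Yars2 fell, and 7 of 16 did not pass the test. With sgRNA 15, Fars2, Pars2, Tars2 and Rars2 rose, Aars2, Cars2, Ears2, Mars2, Sars2 and Yars2 fell, and 6 did not pass. The median log2 fold change was -0.05 with sgRNA 11 and -0.09 with sgRNA 15. Called in the same direction with both guides were 3 higher genes (Fars2, Pars2, Tars2) and 3 lower genes (Aars2, Mars2, Yars2), beside 26.0% higher and 25.7% lower with both guides among all tested genes. The count with sgRNA 15 was sensitive to single libraries: 2 rather than 4 were higher without safe library 3, and 3 rather than 6 were lower without sgRNA 15 library 2. DESeq2 also gave 2 higher and 3 lower. Scaling by library size only gave 6 higher and 4 lower, so that more rose than fell. The difference between the sets was not tested as such, because the members were chosen with results of these libraries known, and the sets also differ in depth of counting.

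**Figure D1:**
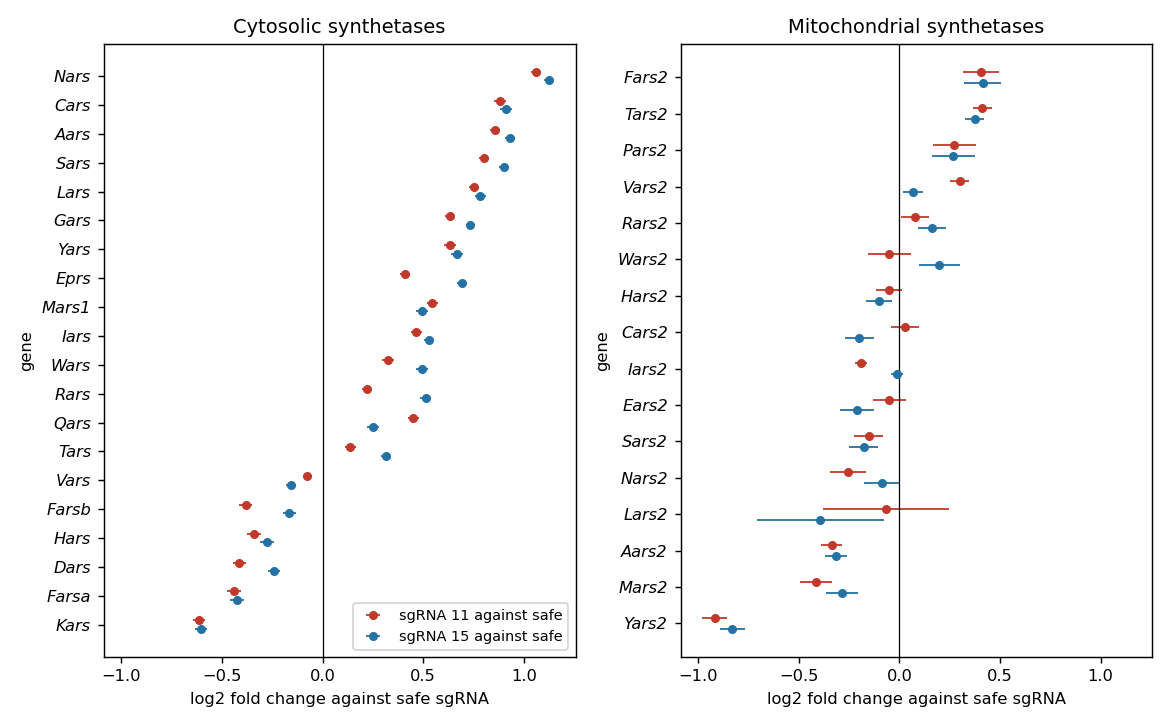
Log2 fold change of the 20 cytosolic and 16 mitochondrial synthetase genes with sgRNA 11 and sgRNA 15 against safe sgRNA (points, with standard errors from the edgeR fit), ordered by the mean of guides. In the cytosolic panel 14 genes lie above 0 and 6 below with each guide, and the mitochondrial point furthest from 0 is that of Yars2.

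The 2 sets differed in depth and in spread between libraries. Cytosolic genes had 1519 to 16017 counts per library and a median coefficient of variation within groups of 1.56%. Mitochondrial genes had 140 to 12236 counts and a median coefficient of variation of 4.32%. Lars2 had the most counts of the mitochondrial set and the widest spread. On the RPKM scale, CPM divided by the kilobases of exon, which allows levels to be compared between genes, cytosolic genes ran from 15.4 (Cars) to 127 (Gars) with safe sgRNA, with a median of 40.5. The mitochondrial genes ran from 1.64 (Wars2) to 29.6 (Lars2), with a median of 6.41. Exon lengths were the union of all annotated exons, so genes with many long isoforms are placed lower than their main transcript would be.

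Nars, the asparagine enzyme, rose most (chr18:64499647-64516652, minus strand, mm10). Its level was 310.3, 317 and 299 CPM in the safe libraries, 649.96, 638 and 645 with sgRNA 11 and 678, 674 and 669.7 with sgRNA 15. All 6 guide libraries lay above all 3 safe libraries, as did those of 26.3% of all tested genes. The log2 fold change was 1.06 ± 0.024 (SE) with sgRNA 11 and 1.13 ± 0.024 with sgRNA 15, or 2.09 and 2.18 times the safe level (edgeR adjusted p = 6.35e-56 and 1.18e-57). On the RPKM scale Nars went from the fourth highest level among the 36 genes with safe sgRNA, 70.9 ± 2.08 (SD, n = 3), to 148 ± 1.38 and 155 ± 0.973. Only Gars stood higher on that scale with the guides, at 197 ± 0.132 and 212 ± 2.86 RPKM.

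Cars, Aars, Sars and Lars followed. Cars, the cysteine enzyme, stood at 99.9, 103 and 102 CPM with safe sgRNA, 186, 187 and 188 with sgRNA 11 and 193, 189 and 189 with sgRNA 15. Aars, the alanine enzyme (chr8:111033144-111057664, plus strand), measured 312, 316 and 324 CPM in safe libraries, 570.1, 559.8 and 590.1 with sgRNA 11 and 614, 597 and 603 with sgRNA 15. In neither gene did the groups with guides overlap the safe group. The log2 fold changes were 0.88 ± 0.0304 and 0.91 ± 0.0305 for Cars, and 0.86 ± 0.025 and 0.93 ± 0.025 for Aars (edgeR adjusted p at most 6.50e-43). Aars shares 15.1% of its exon length with Exosc6 on the same strand and Gm24103 on the other, so its counts are uncertain to that extent.

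Sars, which charges serine and also the selenocysteine tRNA, had 349.6, 344 and 357 CPM with the safe guide, 616, 597 and 618 with sgRNA 11 and 668, 649.98 and 644 with sgRNA 15. Lars, the leucine enzyme and a known leucine sensor upstream of mTORC1, had 177, 181 and 179, then 305, 303 and 297, then 314, 307 and 305 CPM in the same order of groups. The rise was 1.74- and 1.87-fold for Sars, and 1.68- and 1.72-fold for Lars (log2 standard errors 0.024 to 0.027). Their guide libraries all lay above their safe libraries.

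Gars, the glycine enzyme of both compartments (chr6:55038007-55079500, plus strand), stood at 402, 399 and 390.1 CPM with safe sgRNA. It measured 616, 616 and 615 with sgRNA 11 and 666, 650.1 and 666 with sgRNA 15. The safe values lie well below the others, and the sgRNA 11 values lie below those of sgRNA 15. Gars rose by 0.63 ± 0.024 and 0.73 ± 0.024 on the log2 scale (edgeR adjusted p = 1.07e-40 and 4.77e-45). Yars, the tyrosine enzyme, rose by 0.64 and 0.67 (group means 135 ± 2.08, 209 ± 7.83 and 214 ± 3.18 CPM). Mars1, the methionine enzyme, rose by 0.55 and 0.49, and Iars, the isoleucine enzyme, by 0.47 and 0.53. Mars1 overlaps Ddit3, a gene of the stress response on the other strand, over 1.99% of its exon length.

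The enzymes for glutamine, glutamate and proline are given in full because the medium lacked glutamine. Qars had 177, 173 and 178 CPM with safe sgRNA, 239, 237 and 246 with sgRNA 11 and 207, 216 and 204 with sgRNA 15. Eprs had 413, 403 and 409 CPM with safe sgRNA, then 541, 547 and 539.5, then 662, 659.9 and 655. Qars was highest with sgRNA 11 and Eprs with sgRNA 15, and in each gene the 3 groups did not overlap. The log2 fold changes were 0.45 and 0.25 for Qars, and 0.41 and 0.69 for Eprs (SE 0.023 to 0.028). Without a group in glutamine, these values do not show what the medium did.

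The risen genes not yet described are Wars, Rars and Tars. Wars, the tryptophan enzyme, rose by 0.33 and 0.49 and Rars, the arginine enzyme, by 0.22 and 0.51 on the log2 scale. Tars, the threonine enzyme, changed least among the risen genes with sgRNA 11 and for the mean of guides, while with sgRNA 15 Qars changed less. Its level was 239, 248 and 238 CPM with safe sgRNA, 265, 259 and 272 with sgRNA 11 and 299, 305 and 297 with sgRNA 15. The log2 change was 0.14 ± 0.027 and 0.32 ± 0.026 (edgeR adjusted p = 4.06e-06 and 1.07e-18), and the 3 groups again did not overlap.

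Several risen genes carry a sequence that the ATF4 and C/EBP factors are known to bind, and 1 matching stretch for each of the 5 risen genes that hold it is printed. The motif searched was TGATGNAA, on both strands, in windows from 250 bases before to 50 after each RefSeq gene start (GRCm38.p6), of which 27 of 36 members had one. It matched in 5 of the 9 risen cytosolic genes with a window, in 0 of 4 fallen cytosolic genes and in 0 of 14 mitochondrial genes, and in 3.97% of all 32851 windows. The risen genes Cars, Lars, Nars, Rars and Wars had no window and were not searched. Hars and Vars, both fallen, and the mitochondrial genes Hars2 and Pars2 also had none. With only the 250 bases before the start, it matched in 3 of 9 risen genes (Aars, Gars, Tars). No fallen or mitochondrial gene matched there, beside 3.45% of all windows. The lines below read 5′ to 3′ on the gene's strand with the motif in capitals. TTGCATCA and TTTCATCA are the motif read from the opposite strand.
Aars, chr8:111033840-111033869 (+): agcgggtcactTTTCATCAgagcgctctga
Gars, chr6:55037960-55037989 (+): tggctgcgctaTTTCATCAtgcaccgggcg
Iars, chr13:49682126-49682155 (+): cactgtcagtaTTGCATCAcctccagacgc
Tars, chr15:11399655-11399684 (-): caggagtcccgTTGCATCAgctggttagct
Yars, chr4:129189895-129189924 (+): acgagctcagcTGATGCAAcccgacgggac
The matches of Gars and Tars begin 30 and 15 bases before the start, and the printed match of Aars and those of Iars and Yars begin at bases 10, 8 and 4 of the transcript. Aars holds another match, not printed, that begins 112 bases before the start. A match is a description of letters and shows no binding.

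The same windows were searched for other motifs. The NRF1 core, bound by a factor known for nuclear genes of mitochondrial proteins, was in 1 of 9 windows of risen cytosolic genes (Tars), 2 of 4 of fallen ones (Farsb, Kars), 2 of 14 mitochondrial ones (Iars2, Mars2) and 4.60% of all windows. The E-box CACGTG, a site of MYC and of the MiT/TFE factors, was in 3 of 9 (Aars, Iars, Tars), 1 of 4 (Farsb) and 1 of 14 (Ears2), beside 7.15% of all. With only the 250 bases before the start, no mitochondrial gene held either motif. The NRF1 core was then in 1 of 9 risen genes (Tars) and 1 of 4 fallen (Kars), beside 3.74% of all windows. The E-box was then in 2 of 9 (Aars, Iars) and 1 of 4 (Farsb), beside 6.02%. In Aars, Iars and Tars both the E-box and TGATGNAA were present, and they do not overlap.

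Kars, the lysine enzyme of both compartments (chr8:111993443-112011323, minus strand), fell most in the cytosolic set. Its level was 221, 221 and 219 CPM with safe sgRNA, 146, 144 and 143 with sgRNA 11 and 145, 143 and 148 with sgRNA 15. The guide libraries all lay below the safe ones, as did those of 26.5% of all tested genes, and the guide groups overlapped each other. The log2 fold change was -0.61 ± 0.029 with sgRNA 11 and -0.60 ± 0.029 with sgRNA 15 (edgeR adjusted p = 7.78e-34 and 3.20e-33). Thus the genes that serve both compartments moved in opposite directions, Gars up and Kars down. Without that pair, which was left out after the data were seen, 13 of 18 cytosolic genes were higher and 5 lower, with each guide. Of all tested genes 33.3% were called higher and 32.4% lower with sgRNA 11, and 32.2% and 30.7% with sgRNA 15.

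The subunits of the phenylalanine enzyme fell together. Farsa, the catalytic subunit, went from 126 ± 3.903 CPM (SD, n = 3) to 92.4 ± 0.434 and 93.3 ± 1.26, a log2 change of -0.44 and -0.43. Farsb, the other subunit, stood at 132, 135 and 131 CPM with safe sgRNA, 103, 102 and 101 with sgRNA 11 and 122, 117 and 117 with sgRNA 15. Its log2 change was -0.38 ± 0.033 and -0.17 ± 0.033 (edgeR adjusted p = 5.97e-18 and 6.99e-06), so it was lower with sgRNA 11 than with sgRNA 15. Farsb shares 9.47% of its exon length with Sgpp2 on the other strand.

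Dars, the aspartate enzyme, fell by 0.41 with sgRNA 11 and by 0.24 with sgRNA 15 on the log2 scale (group means 171 ± 4.54, 128 ± 4.596 and 144 ± 1.38 CPM). Hars, the histidine enzyme, dropped by 0.34 and 0.28 (group means 121 ± 2.46, 95.9 ± 3.86 and 100.2 ± 2.34 CPM). Hars overlaps its mitochondrial counterpart Hars2, transcribed from the other strand, over 7.97% of its exon length. The smallest change of the set was in Vars, the valine enzyme. Vars stood at 639, 657 and 674 CPM with safe sgRNA, 625, 610.01 and 634 with sgRNA 11 and 583, 589 and 596 with sgRNA 15. The groups lie in that order without overlap, but the gaps are small: the log2 change was -0.07 ± 0.023 and -0.16 ± 0.024 (edgeR adjusted p = 0.00374 and 1.23e-08). Scaling by library size only ended the call with sgRNA 11 (log2 change -0.04, adjusted p = 0.0966).

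**Figure D2:**
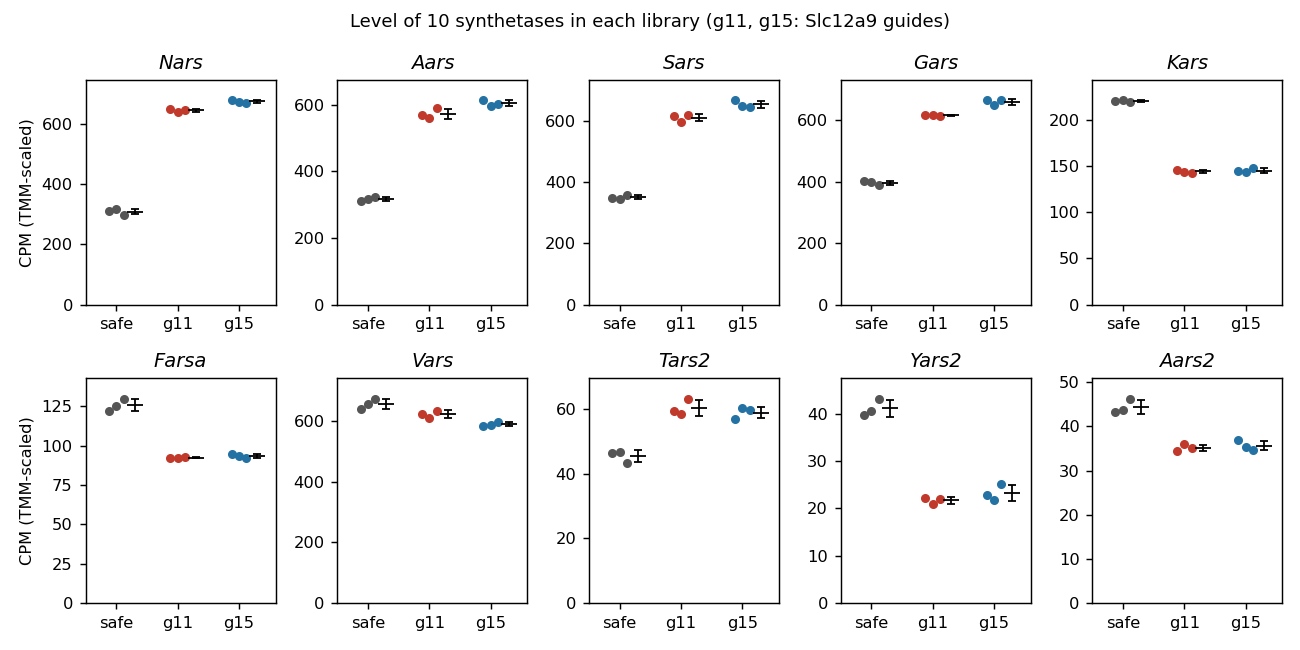
Level in CPM of 10 synthetase genes in each of the 9 libraries (points) with the mean and SD of each group (bars, n = 3), on axes that start at 0. The safe points of Nars, Aars, Sars, Gars and Tars2 lie below the guide points, and those of Kars, Farsa, Vars, Yars2 and Aars2 lie above them.

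Sorted by structural class, a grouping chosen after the values were seen, 9 of the 10 cytosolic class I enzymes were higher with both guides and Vars was lower, beside 26.0% higher and 25.7% lower with both guides among all tested genes. Of the 10 class II enzymes 5 were higher (Aars, Gars, Nars, Sars, Tars) and 5 lower (Dars, Farsa, Farsb, Hars, Kars). As background, the active site of class II is built on antiparallel strands and that of class I on a Rossmann fold. Eprs, which joins a class I and a class II enzyme, was counted in class I. In the mitochondrial set, class I had 1 higher and 3 lower of 9 with sgRNA 11, and class II 3 higher and 2 lower of 7. Of all tested genes 33.3% were higher and 32.4% lower with that guide. With sgRNA 15, class I had 1 higher and 4 lower, and class II 3 higher and 2 lower, beside 32.2% and 30.7% of all.

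In mammals, 8 of the cytosolic enzyme genes give a multi-tRNA synthetase complex held together by 3 scaffold proteins. Of its enzyme genes, 6 were higher with both guides (Eprs, Iars, Lars, Mars1, Qars, Rars) and 2 lower (Kars, Dars), beside the same shares of 26.0% and 25.7%. Aimp2, the scaffold that holds Kars, went from 24.6 ± 1.82 CPM to 15.1 ± 1.85 and 15.7 ± 0.612, a log2 change of -0.70 ± 0.079 and -0.64 ± 0.079 (edgeR adjusted p = 8.05e-13 and 2.05e-11). Eef1e1, also called AIMP3, went from 57.2 ± 1.79 to 29.9 ± 2.69 and 34.4 ± 1.72 CPM, and fell by 0.94 and 0.73 on the log2 scale. Aimp1, named after its value was seen, rose by 0.09 and 0.18 (edgeR adjusted p = 0.0155 and 3.17e-06). Both the enzymes and the scaffolds of the complex thus moved in both directions.

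In the mitochondrial set the change of Yars2, the tyrosine enzyme (chr16:16302965-16309640, plus strand), was the largest. It stood at 39.8, 40.5 and 43.2 CPM with safe sgRNA, 22.2, 20.9 and 22.1 with sgRNA 11 and 22.8, 21.7 and 25.2 with sgRNA 15. Every guide library was lower than every safe library by a wide gap. The log2 fold change was -0.92 ± 0.062 and -0.83 ± 0.062, or 1.89- and 1.78-fold lower (edgeR adjusted p = 1.07e-23 and 3.01e-21). Aars2, the alanine enzyme, had 43.3, 43.8 and 46.3 CPM with safe sgRNA, 34.5, 35.9 and 35.1 with sgRNA 11 and 36.8, 35.4 and 34.7 with sgRNA 15. It too lay lower in every guide library, and fell by 0.34 ± 0.053 and 0.31 ± 0.053 on the log2 scale. Mars2, the methionine enzyme, had 18.97, 21.9 and 24.4 CPM with safe sgRNA, 17.7, 15.7 and 15.2 with sgRNA 11 and 18.97, 16.9 and 17.4 with sgRNA 15. It fell by 0.41 ± 0.081 and 0.28 ± 0.0801 (edgeR adjusted p = 5.19e-06 and 0.00133), although its groups met, since safe library 1 and sgRNA 15 library 1 both read 18.97 CPM.

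Tars2, Fars2 and Pars2 were the mitochondrial genes higher with both guides. Tars2, the threonine enzyme, had 46.3, 46.6 and 43.4 CPM with safe sgRNA, 59.6, 58.4 and 63.3 with sgRNA 11 and 56.97, 60.3 and 59.6 with sgRNA 15, a rise of 0.41 ± 0.047 and 0.37 ± 0.048 on the log2 scale. Fars2, the single-chain mitochondrial phenylalanine enzyme, had 10.7, 9.4999 and 10.7 CPM with safe sgRNA, then 13.4, 13.8 and 13.8, then 14.1, 13.8 and 13.3, and rose by 0.41 ± 0.091 and 0.41 ± 0.091. In both genes the guide libraries lay above the safe ones. Fars2 moved the other way from the cytosolic subunits, but it shares 10.7% of its exon length with Lyrm4 and Nrn1 on the other strand and is uncertain to that extent. Pars2, the proline enzyme, was low throughout, at 7.95, 9.25 and 7.56 CPM with safe sgRNA, 10.2, 9.99 and 9.697 with sgRNA 11 and 9.32, 10.8 and 9.56 with sgRNA 15. Its rise of 0.27 ± 0.11 and 0.27 ± 0.11 (edgeR adjusted p = 0.019 and 0.0238) rested on single libraries. Without safe library 1, safe library 3 or sgRNA 11 library 1, its adjusted p with sgRNA 11 became 0.0694, 0.107 and 0.0515. Without safe library 1, safe library 3 or sgRNA 15 library 2, that with sgRNA 15 became 0.0918, 0.131 and 0.181.

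Other mitochondrial genes were called with 1 guide. Iars2, the isoleucine enzyme, fell with sgRNA 11 by 0.19 ± 0.031, from 158 ± 4.78 to 139 ± 0.685 CPM, and stood at 157 ± 4.02 CPM with sgRNA 15. Its exons overlap 2010103J01Rik and Rab3gap2 on the other strand over 24.2% of their length, so it is uncertain. Vars2, the valine enzyme, rose with sgRNA 11 by 0.30 ± 0.047, from 45.9 ± 1.301 to 56.4 ± 1.13 CPM, and stood at 48.1 ± 0.3897 CPM with sgRNA 15. Vars2 and its cytosolic counterpart Vars thus moved in opposite directions with sgRNA 11.

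The remaining calls with 1 guide each depended on single libraries. Nars2, the asparagine enzyme, fell with sgRNA 11 by 0.26 (edgeR adjusted p = 0.0107), but not without sgRNA 11 library 1 (adjusted p = 0.122). With sgRNA 15, Ears2, the glutamate enzyme, fell by 0.21 (adjusted p = 0.0256), and without sgRNA 15 library 2 or 3 its adjusted p was 0.0535 and 0.197. Sars2, the serine enzyme, fell by 0.18 (adjusted p = 0.0294), and without safe library 2 or sgRNA 15 library 1 or 2 its adjusted p was 0.112, 0.18 and 0.0754. With sgRNA 11 Sars2 was not called (log2 change -0.15, adjusted p = 0.0581), yet it was without safe library 1, sgRNA 11 library 3 or sgRNA 15 library 3 (adjusted p = 0.0298, 0.0343 and 0.0393). Rars2, the arginine enzyme, rose by 0.16 with sgRNA 15 (adjusted p = 0.0348). That call was lost without safe library 2 or 3, sgRNA 11 library 3, or sgRNA 15 library 1 or 3 (adjusted p = 0.169, 0.179, 0.057, 0.109 and 0.09).

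The mitochondrial genes with the smallest mean change were Wars2, Hars2 and Cars2. Wars2, the tryptophan enzyme, had 10.2, 9.399 and 9.61 CPM with safe sgRNA, 9.37, 9.54 and 9.42 with sgRNA 11 and 9.56, 13.2 and 10.7 with sgRNA 15. It was not called with either guide, but leaving out sgRNA 15 library 1 gave a log2 change of 0.30 with sgRNA 15 (edgeR adjusted p = 0.0157). Hars2, the histidine enzyme, had 27.9, 26.7 and 25.7 CPM with safe sgRNA, 25.3, 25.6 and 26.8 with sgRNA 11 and 25.01, 24.98 and 25.1 with sgRNA 15, with overlap of the groups and no call. Cars2, the cysteine enzyme, had 23.8, 21.7 and 24.2 CPM with safe sgRNA, 23.1, 25.8 and 22.5 with sgRNA 11 and 21.2, 19.01 and 20.8 with sgRNA 15. Cars2 fell by 0.20 ± 0.072 with sgRNA 15 (adjusted p = 0.0128, but 0.0967 without sgRNA 15 library 2), and the change with sgRNA 11 was 0.03 ± 0.0702.

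Lars2, the mitochondrial leucine enzyme (chr9:123366927-123462666, plus strand), could not be read with the precision of the others. Its level was 489, 233 and 264 CPM with safe sgRNA, 277, 276 and 396 with sgRNA 11 and 262, 234 and 264 with sgRNA 15. Safe library 1 and sgRNA 11 library 3 stand above the other 7. Its coefficient of variation within the safe group was 42.5%, while no other mitochondrial gene went past 16.6% in any group. The log2 change was -0.07 ± 0.31 with sgRNA 11 and -0.39 ± 0.32 with sgRNA 15 (edgeR adjusted p = 0.87 and 0.329). Without safe library 1 these became 0.35 and 0.02 (adjusted p = 0.172 and 0.948). The gene CT010467.1, looked up after these values were seen, was highest in the same 2 libraries: 10590.2, 4323 and 5769 CPM with safe sgRNA, 7077, 7136 and 11312 with sgRNA 11, and 6742, 5844 and 7273 with sgRNA 15. Its part in the level of Lars2 was not tested.

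**Figure D3:**
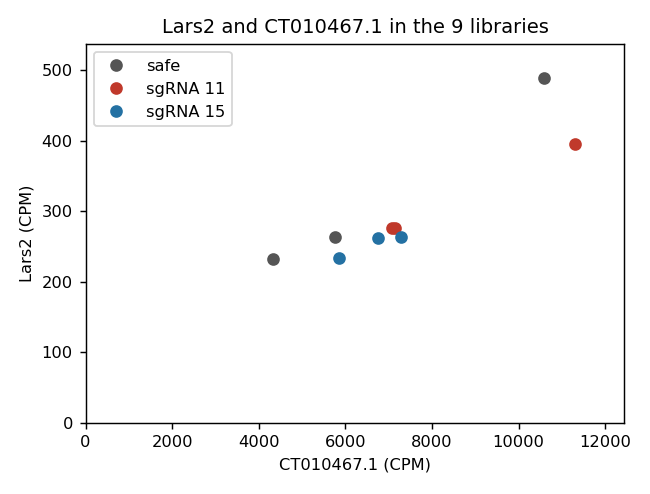
Level of Lars2 against that of CT010467.1 (both in CPM) in the 9 libraries, coloured by group. The safe library at 489 CPM of Lars2 and the sgRNA 11 library at 396 CPM are also those with the most CT010467.1, and the other 7 lie at 233 to 277 CPM of Lars2.

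Summed over the set, cytosolic synthetases reached 989.9 ± 2.68 RPKM under the safe guide (SD, n = 3), 1278 ± 10.7 under sgRNA 11 and 1354 ± 11.3 under sgRNA 15. The 3 groups did not overlap in that sum. The mitochondrial sum was 123 ± 12.7, 115 ± 6.99 and 110.2 ± 1.82 RPKM, with overlap of the groups. Without Lars2, a choice made after the data were seen, the mitochondrial sum was 92.99 ± 0.39 under the safe guide, 86.5 ± 0.792 under sgRNA 11 and 87.4 ± 0.378 under sgRNA 15. The ratio of the sums without Lars2 was 10.6, 14.8 and 15.5 in the same order, with 10.60 to 10.73 in the safe libraries, 14.7 to 14.9 with sgRNA 11 and 15.4 to 15.6 with sgRNA 15. More cytosolic synthetase mRNA was thus present per mitochondrial synthetase mRNA in each guide library than in any safe library.

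**Figure D4:**
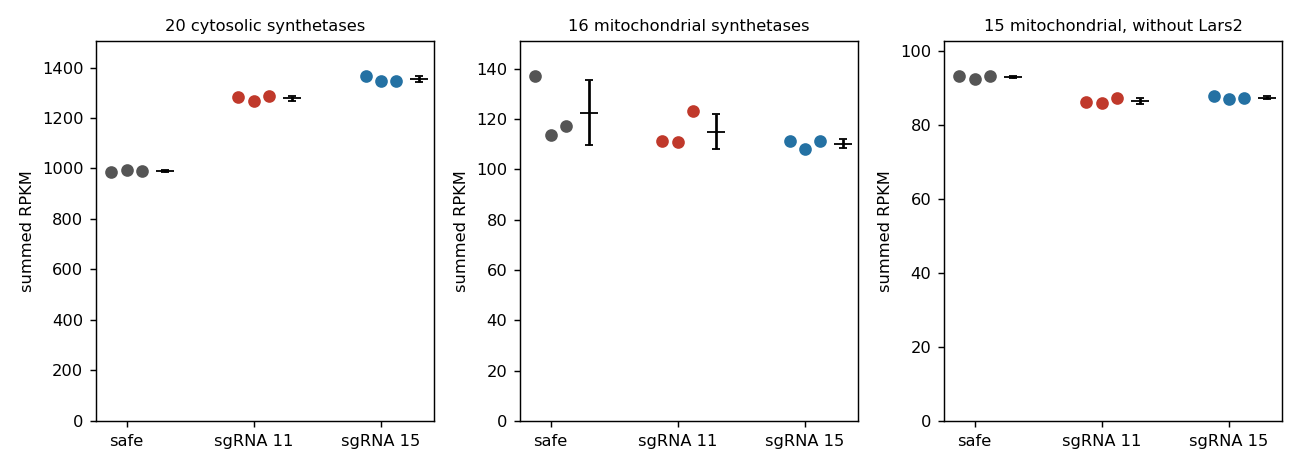
Summed RPKM of the 20 cytosolic genes, of the 16 mitochondrial genes and of the latter without Lars2, in each library (points) with mean and SD of the group (bars, n = 3). The cytosolic sum lies near 990 with safe sgRNA and at 1266 or more with either guide, and the mitochondrial sum has 1 high safe library that is gone once Lars2 is left out.

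For 16 pairs of a cytosolic and a mitochondrial gene for the same amino acid, the log2 ratio of their RPKM was taken in each library, with Eprs serving for both Ears2 and Pars2. The ratio lay above all safe libraries in all guide libraries for 9 pairs, below for 3, and overlapped for 4. Of all tested genes taken singly, 26.3% lay above in that way and 26.5% below. No such share was taken for ratios of 2 genes, and the 2 pairs with Eprs are not separate counts. The median change of the ratio was 0.56 with sgRNA 11 and 0.66 with sgRNA 15. Yars over Yars2 shifted most, from 0.79 ± 0.046 (SD, n = 3) to 2.35 ± 0.018 and 2.29 ± 0.13, where the cytosolic gene rose and the mitochondrial gene fell. For alanine the ratio went from 1.87 ± 0.026 to 3.07 ± 0.058 and 3.12 ± 0.0297. Phenylalanine went the other way, with Farsa over Fars2 at 3.95 ± 0.10 under the safe guide, 3.10 ± 0.022 under sgRNA 11 and 3.11 ± 0.028 under sgRNA 15. Histidine and valine also shifted towards the mitochondrial gene, by 0.29 and 0.37 with sgRNA 11 and by 0.18 and 0.22 with sgRNA 15.

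**Figure D5:**
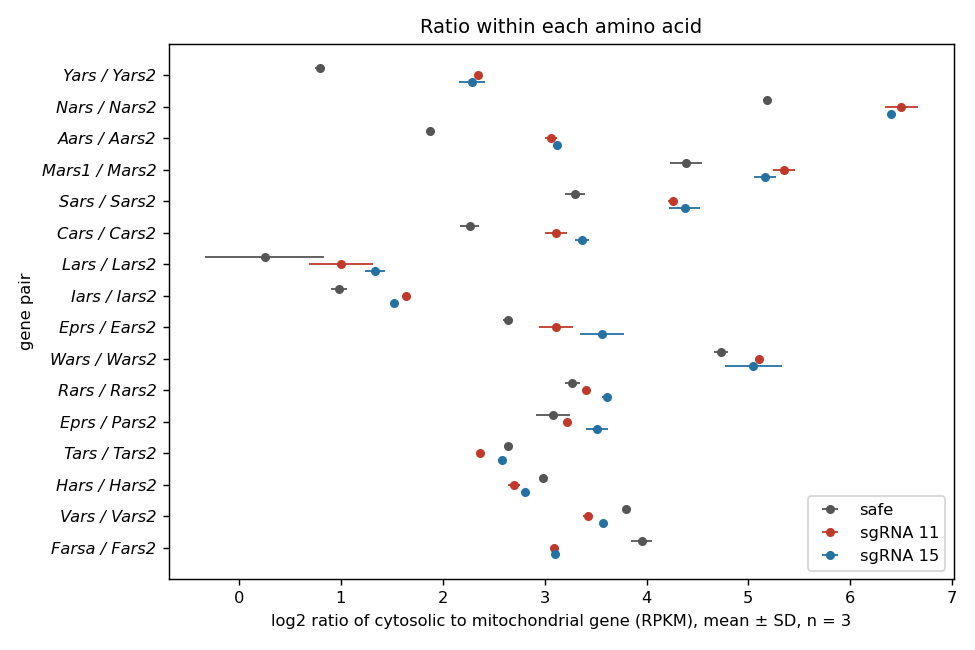
Log2 ratio of cytosolic to mitochondrial gene on the RPKM scale for 16 pairs (mean and SD of 3 libraries per group), ordered by the change with sgRNA 11. The guide points lie to the right of the safe point for most pairs and to its left for Farsa with Fars2, Vars with Vars2, Hars with Hars2 and Tars with Tars2.

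Set against each other, the guides differed in 12 of 20 cytosolic genes and 3 of 16 mitochondrial genes, beside 33.5% of all tested genes (18% higher and 15.5% lower with sgRNA 15). Higher with sgRNA 15 were Aars, Dars, Eprs, Farsb, Gars, Nars, Rars, Sars, Tars, Wars and Iars2, and lower were Qars, Vars, Cars2 and Vars2. The differences were small. Rars had the largest at 0.29 ± 0.026 (edgeR adjusted p = 1.69e-16), with 287, 283 and 284 CPM with sgRNA 11 and 357, 351 and 336 with sgRNA 15, and Eprs followed at 0.28 ± 0.023. Among lower genes, Qars differed by -0.20 ± 0.028 (adjusted p = 2.47e-09). The guides thus placed Qars and Eprs in opposite order while both genes lay above safe sgRNA with each guide. The differences of Aars and Nars, 0.08 and 0.06, were lost when any of several single libraries was left out. For Aars these were sgRNA 11 library 1 or 2 and sgRNA 15 library 1 (adjusted p = 0.0635, 0.12 and 0.108), and for Nars sgRNA 11 library 1, 2 or 3 and sgRNA 15 library 1 or 2 (adjusted p = 0.0638, 0.131, 0.0635, 0.145 and 0.0907). Cars2 was lost without sgRNA 11 library 2 or sgRNA 15 library 2 (adjusted p = 0.0847 and 0.0811). Among the mitochondrial genes the count was 2 higher rather than 1 without sgRNA 15 library 1, and 1 lower rather than 2 without sgRNA 15 library 2.

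Other genes of tRNA charging moved in both directions. Of 15 further genes in that list 3 were higher and 6 lower for the mean of guides, beside 34.7% higher and 33.3% lower of all tested genes, with a median log2 change of -0.07. Mtfmt, which formylates the mitochondrial initiator methionyl-tRNA, fell by 0.62 and 0.49 with sgRNA 11 and 15, from 41.7 ± 2.03 to 27.1 ± 1.11 and 29.6 ± 1.01 CPM. In the GatCAB complex, looked at after values were seen, Gatb rose by 0.32 and 0.39, Qrsl1 fell by 0.28 and 0.19, and Gatc was not called.

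Among 10 genes of tRNA maturation and export, 3 were higher and 6 lower for the mean of guides (all tested genes: 34.7% and 33.3%), with a median of -0.32. Nsun2, which methylates cytosines of tRNA, fell by 0.99 and 0.83 on the log2 scale, from 195 ± 1.77 to 98.4 ± 0.247 and 109 ± 3.41 CPM. Elac2, which trims the 3′ end of tRNA precursors, fell by 0.43 and 0.52, and Trnt1, which adds the terminal CCA to which amino acids are joined, fell by 0.55 and 0.29. Xpot, the exporter of tRNA from the nucleus, rose by 0.24 and 0.29 (edgeR adjusted p = 3.49e-13 and 3.50e-17).

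Of 13 mitochondrial translation factors, 1 was higher and 8 were lower for the mean of guides (all tested genes: 34.7% and 33.3%), with a median of -0.23. Gfm1, an elongation factor, fell by 0.68 and 0.47, Tsfm by 0.57 and 0.28, and Tufm by 0.25 and 0.32. Mtif2, the initiation factor, rose by 0.57 and 0.56, from 24.4 ± 1.24 to 36.3 ± 1.92 and 36.3 ± 2.01 CPM. The median of this list lay further below 0 than that of the mitochondrial synthetases for the mean of guides, which was -0.09, and no test compared them.

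The list of amino acid response regulators was chosen with results of these libraries known, so its direction is no independent evidence. In it 11 of 12 genes were higher and 1 was lower for the mean of guides (all tested genes: 34.7% and 33.3%), with a median of 1.35. The lower gene, named after its value was seen, was Eif2ak4, which encodes GCN2. Its log2 change was -0.29 with sgRNA 11 and -0.19 with sgRNA 15 (edgeR adjusted p = 6.86e-06 and 0.0025). Trib3, an inhibitory pseudokinase, rose from 34.03 ± 1.28 to 266 ± 4.82 and 256 ± 10.1 CPM, a log2 change of 2.97 and 2.91. Atf5, a transcription factor, rose by 2.38 and 2.40, and Chac1, which degrades glutathione, by 2.52 and 2.61. Asns, the enzyme that makes the asparagine which Nars joins to tRNA, rose from 95.3 ± 5.23 to 364 ± 5.51 and 374 ± 1.46 CPM, by 1.93 and 1.97 on the log2 scale (edgeR adjusted p = 2.89e-69 and 5.75e-70). The rise of Nars, the largest among the synthetases, was smaller than those of Trib3, Atf5, Chac1 and Asns.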

How the data were processed

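RNA from 9 libraries of J774A.1 cells was grouped by the guide in the labels. The tables deposited by the authors hold read counts per gene. The submitters' processing notes name STAR, HTSeq and the mm10 genome. Their versions, the annotation, and how HTSeq treated strand and overlaps were not given in the sources used here. HTSeq's tallies of unassigned reads stayed out of all tests: 79.3 to 80.7% of reads in each deposited table lay in genes, 6.32 to 6.56% were ambiguous, 6.20 to 6.69% aligned to several places, 4.10 to 4.60% lay in no feature, 1.45 to 2.03% were of low quality and 0.794 to 1.06% were not aligned. Reads that fall on overlapping genes or close copies are therefore undercounted.

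The test was edgeR 4.0.16 (R 4.3.3): filterByExpr with a minimum count of 10, TMM factors (0.979 to 1.02), and a robust quasi-likelihood fit to all 9 libraries with 6 residual degrees of freedom, 2-sided tests and Benjamini-Hochberg adjustment over all 13453 tested genes in each comparison. A gene was called at an adjusted p under 0.05. Standard errors came from the F statistics. RPKM is TMM-scaled CPM per kilobase of exon in GENCODE M21, an mm10 annotation that gave a symbol to 55227 identifiers, positions and exon overlaps. Genes with at least 10% exon overlap are called uncertain. Promoter windows are from RefSeq (GRCm38.p6). No 2 libraries of a group agreed within sampling noise (chi-square per degree of freedom 1.76 to 6.83). Same-numbered libraries of different groups were not treated as paired in the main test. The correlation of deviations was -0.008 to 0.058 for them and -0.072 to 0.041 for libraries of different number. These low values do not settle whether the libraries were made in pairs. The procedure was also run on simulated data with far fewer changed genes than were called here. That run does not check the scaling or the calls in data with so many changes.

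The members and lists were chosen with earlier results of these data known. Values per library are given for Gars, Kars, Qars, Eprs, and in each set the 6 members with the largest and the 3 with the smallest change for the mean of guides; other lists name at most 4 genes with the smallest p. Some items went beyond that rule and were chosen after values were seen. They were per-library values of Rars and Lars2, the genes Aimp1, Gatb, Qrsl1, Gatc, Eif2ak4 and CT010467.1, and the grouping by class and complex. The results were recomputed with DESeq2 1.42.0, limma-voom (limma 3.58.1), other size factors, other filters on low counts (none, or a mean of at least 5 CPM), the replicate number as a block, only the groups compared, GC and length offsets, and each library left out; subsets without some members were added after seeing the data.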

Additional observations from a re-analysis of the deposited data

Results flagged for a closer look

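The changes with the 2 guides differed from each other in 15 of the 36 synthetase genes, beside 33.5% of all tested genes. The test set sgRNA 15 against sgRNA 11 (edgeR, Benjamini-Hochberg adjusted p under 0.05). As log2 differences of sgRNA 15 from sgRNA 11, the cytosolic genes were Rars 0.29, Eprs 0.28, Farsb 0.22, Tars 0.18, Dars 0.17, Wars 0.17, Gars 0.10, Sars 0.099, Aars 0.077, Nars 0.065, Vars -0.081 and Qars -0.20. The mitochondrial genes were Iars2 0.18, Cars2 -0.23 and Vars2 -0.23. In all 12 cytosolic genes both guides had the same direction against safe sgRNA, so what differed was the size. Each guide was represented by 3 libraries, and no further guide or control tells a difference between guides from one between the cell populations that carried them.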

How the results depend on the processing

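Under each alternative below and with each library left out, 14 cytosolic genes were higher and 6 lower with each guide and for their mean, except that library size scaling left Vars uncalled with sgRNA 11, and that leaving out members with exon overlap gave 13 higher. Of 936 cytosolic gene values under alternatives 921 kept direction and side of the threshold, and of 630 mitochondrial ones 571 did. Under library size scaling the cytosolic medians were 0.46, 0.54 and 0.49 (sgRNA 11, sgRNA 15, mean) and the mitochondrial ones -0.018, -0.057 and -0.057. Under GC and length offsets they were 0.41, 0.46 and 0.44, and -0.089, -0.13 and -0.14. A minimum mean of 5 CPM gave cytosolic medians of 0.46 and 0.47 (sgRNA 11, mean). Leaving out members with at least 10% exon overlap, added after seeing the data, gave cytosolic medians of 0.41 and 0.41 (sgRNA 11, mean), a mitochondrial median of -0.14 with sgRNA 15, and 0 mitochondrial genes higher with sgRNA 15 than sgRNA 11 by edgeR. With single libraries left out, cytosolic medians ran from 0.41 to 0.44 (sgRNA 11), and mitochondrial medians from -0.12 to -0.012, -0.14 to -0.031 and -0.13 to -0.056. Mitochondrial counts with sgRNA 15 ran from 2 to 4 higher and 3 to 6 lower, and against sgRNA 11 from 1 to 2 higher and 1 to 3 lower. DESeq2 gave 2 higher and 3 lower with sgRNA 15, library size scaling 6 and 4, and offsets 3 and 8. For sgRNA 15 against sgRNA 11, offsets gave 1 lower cytosolic gene and a cytosolic median of 0.0495, and library size scaling gave 2 higher mitochondrial genes. The cytosolic level summed in CPM, where longer genes weigh more than in RPKM, differed from safe by 0.41 and 0.49 (log2). Library size scaling made this 0.44 and 0.53, and the median over members 0.42 and 0.51. Signs of values that passed no test turned in 5 mitochondrial genes. With sgRNA 11, Cars2 was -0.073 (offsets), -0.028 (without safe replicate 2) and -0.026 (without sgRNA 11 replicate 2; at most 0.058 with any library left out), Ears2 was 0.019 (without sgRNA 11 replicate 2), and Lars2 was 0.35, 0.031 and 0.023 (without safe replicate 1, sgRNA 11 replicate 1 and 2) and at lowest -0.27. With sgRNA 15, Iars2 was 0.028 (library size), 0.00050 (5 CPM) and 0.011 (without safe replicate 1; at lowest -0.038), Lars2 0.018 (without safe replicate 1; at lowest -0.60) and Vars2 -0.025 (offsets). The cause was not tested. With the replicate number as a block, 14 cytosolic genes were higher and 6 lower with each guide, and Sars2 with sgRNA 11 was called (adjusted p = 0.0474). Same-numbered libraries deviated together weakly at most (correlation up to 0.058), and the block pairs them by number only. Fitting only the groups compared gives no value for the mean of guides. Counts per library went down to 140 among mitochondrial genes, where relative counting error is largest.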

Other observations

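The ribosomal RNAs of the mitochondrial genome, looked up after the other values were seen, were lower with both guides in these polyadenylated libraries. On average mt-Rnr1 stood at 82.6 ± 11.8 CPM with safe sgRNA (SD, n = 3), 40.0 ± 7.93 with sgRNA 11 and 34.7 ± 1.76 with sgRNA 15. For mt-Rnr2 the values were 340.4 ± 23.3, 155 ± 7.44 and 171 ± 3.65 CPM. In both genes every guide library lay below every safe library, and selection for poly(A) limits what these levels stand for.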
